A study of Mus musculus with 6 samples.

Results

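The 10 genes described here code for proteins that make peptides, load them onto major histocompatibility complex (MHC) class I molecules, or switch these genes on. They were taken as a named list and not by a cut on measured values. Earlier results of these data were known when the list was chosen. The series held 27998 genes from single-cell RNA sequencing of mouse intestinal epithelium, and all 10 had a row in the matrix. A class I molecule is a heavy chain, here H2-K1 or H2-D1, joined to beta-2-microglobulin (B2m), and it shows cytosolic peptides at the cell surface. The immunoproteasome, in which Psmb8, Psmb9 and Psmb10 replace the standard catalytic subunits Psmb5, Psmb6 and Psmb7, cuts proteins into peptides, and the transporter Tap1-Tap2 carries these into the endoplasmic reticulum (ER). There tapasin (Tapbp), with the lectin chaperones calreticulin and calnexin, holds the heavy chain until a peptide binds, and heavy chains carry N-linked sugars that those chaperones recognise. Nlrc5 is a transactivator of class I genes, and interferon gamma raises most genes of the pathway.

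The series asks how transcription over time relates to the outcome of ER stress. Monolayers grown from intestinal organoids were treated with DMSO as the vehicle, with tunicamycin at 0.5 µg/ml for 13 h, or with the same dose for 25 h, with 2 libraries in each of the 3 groups. Tunicamycin prevents the transfer of N-linked sugars to new proteins by blocking the synthesis of their lipid-linked precursor. The 25 h and DMSO arms began on day 3 of differentiation, the 13 h arm was kept in DMSO before its tunicamycin, and all were collected on day 4. Every library, controls included, came from a cross that the labels give as Rosa26-floxed STOP-Cas9 with cmv-cre on B6; the promoter of that Cre is not specific to the gut. The labels name small intestine as the tissue but colonic spheroids in the growth protocol, so the gut segment is uncertain. Dead cells were removed with a kit before droplet libraries were made, so cells that had died were not measured. The series text calls the 2 libraries of a group biological replicates, and p-values measure only the spread between these samples.

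After removal of cells with over 25% mitochondrial counts, 5026 of 5122 cells remained, with 9432005 to 19539013 unique molecular identifiers (UMIs) per library. Cells carried a class given by the authors, by a method that the labels do not give. Absorptive enterocytes numbered 1046 and 1037 in DMSO, 686 and 726 after 13 h, and 426 and 447 after 25 h. Goblet cells, which secrete mucus, numbered 105 and 109 in DMSO, 77 and 75 after 13 h, and 98 and 86 after 25 h. The summed level of 8 goblet markers was 79643 to 196930 UMIs scaled to a common library total (CPM) in goblet cells and 2348 to 3921 CPM in enterocytes over all libraries. That of 10 enterocyte markers in enterocytes was 6107 to 6345 CPM in DMSO, 4173 to 4388 at 13 h and 3225 to 3236 at 25 h. Of these markers, Fabp1, Slc26a3 and Aqp8 did not pass the expression filter in either class. Of 12 immune markers, 6 had 0 UMIs in every enterocyte library, Ptprc and Cd3e among them. The summed level of that list in enterocytes was low but moved with treatment. It was 7.11 and 7.28 CPM in DMSO, 3.06 and 3.75 CPM after 13 h, and 2.45 and 1.38 CPM after 25 h. In DMSO it was mostly Csf1r, which averaged 5.87 CPM there, 1.78 CPM after 13 h and 1.16 CPM after 25 h (on the TMM scale explained below). In the same order, Cd68 averaged 0.689, 0.814 and 0.425 CPM, Fcer1g 0.417, 0.421 and 0.121 CPM, and Lyz2 0.332, 0.308 and 0.121 CPM. The part of the list in the results was not tested. In goblet cells the sum was 2.31 and 1.47 CPM in DMSO, 0.950 and 0.949 CPM after 13 h, and 1.40 and 2.32 CPM after 25 h. The class named tuft held 12 to 27 cells per library and low tuft marker levels (27.0 to 294 CPM), with enteroendocrine markers at 126 to 3908 CPM, so its values are given without a test.

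B2m lies on chromosome 2 and Psmb10 and Nlrc5 on chromosome 8, while the other 7 genes lie on chromosome 17 (GRCm38), where the MHC of the mouse is. Promoters of 4 genes are shown because their levels took different courses: the light chain B2m, the heavy chains H2-K1 and H2-D1, and Psmb9, whose start faces that of Tap1 so closely that the 2 windows share 275 bases. Each is the RefSeq window from 250 bases before to 50 bases after an annotated start on GRCm38.p6, read 5′ to 3′ on the strand of the gene. The windows are chr2:122147437-122147736 on the plus strand for B2m, chr17:34000298-34000597 on the minus strand for H2-K1, chr17:35262844-35263143 on the plus strand for H2-D1 and chr17:34187281-34187580 on the minus strand for Psmb9. Capitals mark matches, on either strand, to an interferon-response core (GAAA, any 2 bases, GAAA) and to a kappa B type motif (GGGA, any base, T, any 2 bases, CC).
B2m: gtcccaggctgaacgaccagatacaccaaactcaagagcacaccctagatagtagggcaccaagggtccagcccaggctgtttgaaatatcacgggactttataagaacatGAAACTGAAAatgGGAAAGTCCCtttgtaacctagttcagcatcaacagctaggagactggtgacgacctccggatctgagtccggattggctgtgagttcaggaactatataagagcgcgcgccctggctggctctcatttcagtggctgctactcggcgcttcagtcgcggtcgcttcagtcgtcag
H2-K1: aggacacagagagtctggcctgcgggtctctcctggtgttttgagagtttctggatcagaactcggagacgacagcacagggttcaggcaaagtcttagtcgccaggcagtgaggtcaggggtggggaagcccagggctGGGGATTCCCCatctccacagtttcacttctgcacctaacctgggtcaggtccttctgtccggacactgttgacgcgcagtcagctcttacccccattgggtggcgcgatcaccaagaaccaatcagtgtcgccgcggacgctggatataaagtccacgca
H2-D1: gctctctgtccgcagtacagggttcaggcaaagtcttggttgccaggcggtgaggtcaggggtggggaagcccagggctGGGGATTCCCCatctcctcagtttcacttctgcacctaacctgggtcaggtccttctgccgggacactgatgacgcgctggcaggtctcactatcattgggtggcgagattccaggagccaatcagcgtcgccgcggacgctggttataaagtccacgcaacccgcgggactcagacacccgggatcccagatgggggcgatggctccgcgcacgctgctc
Psmb9: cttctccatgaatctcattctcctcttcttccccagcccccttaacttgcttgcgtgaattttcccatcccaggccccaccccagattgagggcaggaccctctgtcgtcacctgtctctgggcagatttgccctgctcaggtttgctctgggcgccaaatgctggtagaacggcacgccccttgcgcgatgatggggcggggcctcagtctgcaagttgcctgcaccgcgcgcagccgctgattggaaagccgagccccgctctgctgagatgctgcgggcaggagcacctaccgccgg
A window was found for 8 of the 10 genes, and Tap2 and Nlrc5 had none in the table. The interferon-response core occurred in the window of 1 of these 8 genes, B2m, and in 3.44% of all 32851 windows. Only this exact spacing was searched, so a window without a match may still hold another form of interferon-response element. The kappa B type motif occurred in 3 of the 8, B2m, H2-K1 and H2-D1, and in 4.16% of all windows. In both heavy chain genes a match on each strand overlaps the other, and the capitals read the same in both genes. The short motif CCAAT was found in 6 of the 8 and in 37.4% of all windows, and TGACG in 5 of the 8 and in 20.8% of all windows. In both tallies Tap1 and Psmb9 are counted for 1 and the same site, which lies in their shared bases. A match describes the letters and does not show that a factor binds.

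B2m, the invariant light chain, fell at both times in both classes. In enterocytes it stood at 1606 and 1641 CPM in DMSO, 1104 and 1128 CPM after 13 h, and 839 and 810 CPM after 25 h (levels in CPM here use library sizes corrected with the TMM method, a trimmed mean). The 3 groups did not overlap and fell in the order of exposure. B2m was lower by 31.3% at 13 h (log2 fold change -0.54 ± 0.04, SE) and by 49.2% at 25 h (-0.98 ± 0.04), and it fell again between 13 h and 25 h (-0.44 ± 0.04), with adjusted p = 1.55e-07, 2.74e-10 and 7.25e-06 by edgeR's quasi-likelihood test with Benjamini-Hochberg adjustment over all genes. In goblet cells it stood at 1038 and 1080 CPM in DMSO, 476 and 558 CPM after 13 h, and 346 and 322 CPM after 25 h. It fell by 51.2% at 13 h (-1.03 ± 0.11, adjusted p = 4.43e-07) and fell by 68.4% at 25 h (-1.66 ± 0.11, adjusted p = 2.98e-10), and the step between 13 h and 25 h also passed (-0.63 ± 0.11, adjusted p = 0.00119). Without 13 h replicate 2 that step was -0.51 with an adjusted p of 0.0567.

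H2-K1, a classical heavy chain, fell by 13 h, with no passing step between 13 h and 25 h. In enterocytes it had 1419 and 1393 CPM in DMSO, 1039 and 1041 CPM after 13 h, and 977 and 942 CPM after 25 h. Its level was lower by 26.0% at 13 h (-0.44 ± 0.04, adjusted p = 1.36e-06) and by 31.8% at 25 h (-0.55 ± 0.04, adjusted p = 9.87e-08), while 25 h against 13 h gave -0.12 ± 0.04 (adjusted p = 0.0694), which passed without 25 h replicate 1 (-0.15, adjusted p = 0.0285) and with no gene filter (-0.13, adjusted p = 0.0253). In goblet cells H2-K1 had 831 and 877 CPM in DMSO, 537 and 533 CPM after 13 h, and 556 and 456 CPM after 25 h. Both tunicamycin groups lay below both DMSO libraries, with changes of -0.68 ± 0.11 at 13 h (adjusted p = 1.12e-04) and -0.75 ± 0.11 at 25 h (adjusted p = 1.81e-05).

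H2-D1, the other classical heavy chain, had smaller changes than B2m, H2-K1 or Tapbp. In enterocytes it had 785 and 818 CPM in DMSO, 719 and 711 CPM after 13 h, and 772 and 692 CPM after 25 h, so that its 25 h libraries lay on both sides of the 13 h ones. Its change of -0.16 ± 0.05 at 13 h passed narrowly (adjusted p = 0.0187) and did not pass with total-count scaling (-0.11, adjusted p = 0.124), with DESeq2 (adjusted p = 0.0590), without DMSO replicate 2 (0.0938) or without 13 h replicate 2 (0.0648). At 25 h it was -0.13 ± 0.05 and missed the threshold (adjusted p = 0.0515). That call depended on several settings: it passed with no gene filter (-0.17, adjusted p = 0.00150), with at most 10% mitochondrial UMIs (-0.22, adjusted p = 0.00465), with all deposited cells (adjusted p = 0.0488), with all classes summed (adjusted p = 0.0497), and without 25 h replicate 1 (-0.24, adjusted p = 5.31e-04), DMSO replicate 1 (adjusted p = 0.0490) or either 13 h library (adjusted p = 0.0383 and 0.0412). Without 25 h replicate 2 it was -0.058 (adjusted p = 0.342). In goblet cells H2-D1 had 861 and 979 CPM in DMSO, 657 and 654 CPM after 13 h, and 814 and 722 CPM after 25 h. There it fell at 13 h (-0.49 ± 0.10, adjusted p = 0.00175), and at 25 h the value was -0.26 ± 0.10 (adjusted p = 0.0586), and it passed without 25 h replicate 1 (-0.35, adjusted p = 0.0274), with no gene filter (adjusted p = 0.0423) and with at most 10% mitochondrial UMIs (adjusted p = 0.0453). H2-K1 and H2-D1 are closely similar paralogs, with H2-Q and H2-T genes beside them, so reads may have been split between them or dropped in the counting.

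**Figure D1:**
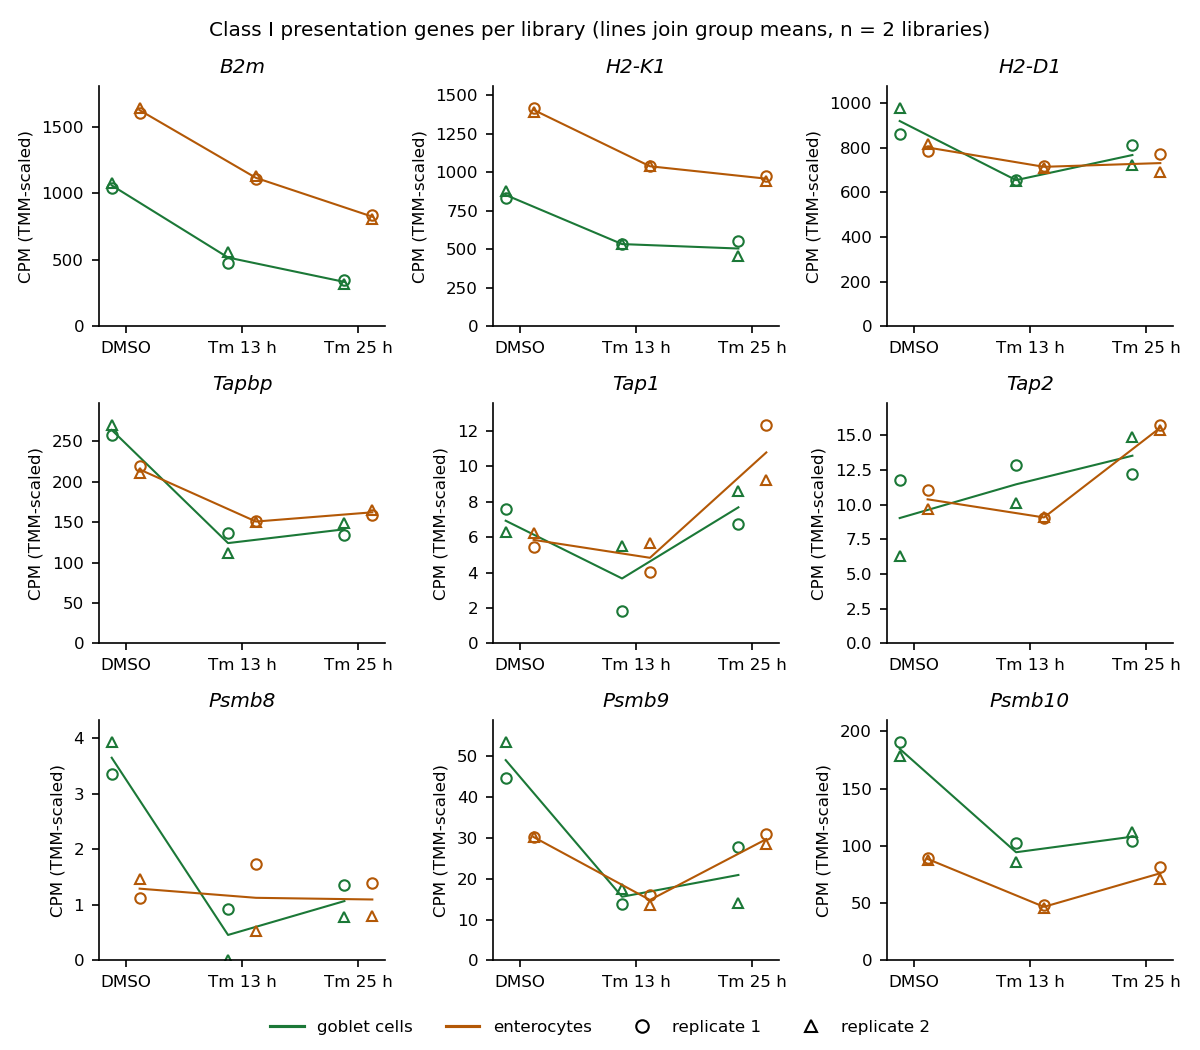
Levels of 9 class I presentation genes in each library, in CPM after TMM scaling, at DMSO, 13 h and 25 h of tunicamycin, for goblet cells (green) and enterocytes (orange). Circles and triangles are the 2 libraries of a group and lines join group means; B2m falls stepwise to 839 and 810 CPM in enterocytes at 25 h, while Psmb9 and Psmb10 dip at 13 h and are back near their DMSO levels in enterocytes but not in goblet cells at 25 h.

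Because the light and heavy chains fell by different amounts, their balance in the RNA shifted. For each UMI of H2-K1 and H2-D1 together, enterocytes held 0.729 and 0.742 UMIs of B2m in DMSO, 0.628 and 0.644 after 13 h, and 0.480 and 0.496 after 25 h. Goblet cells held 0.614 and 0.582 in DMSO, 0.399 and 0.471 after 13 h, and 0.253 and 0.274 after 25 h. These are ratios of UMIs within a library and do not depend on how libraries were scaled, and in neither class did the 3 groups overlap. The ratio of H2-K1 to H2-D1 UMIs moved the same way, with 1.81 and 1.70 in DMSO, 1.45 and 1.46 after 13 h, and 1.27 and 1.36 after 25 h in enterocytes. In goblet cells it was 0.965 and 0.896 in DMSO, 0.817 and 0.815 after 13 h, and 0.683 and 0.632 after 25 h. The ratios were not tested.

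**Figure D2:**
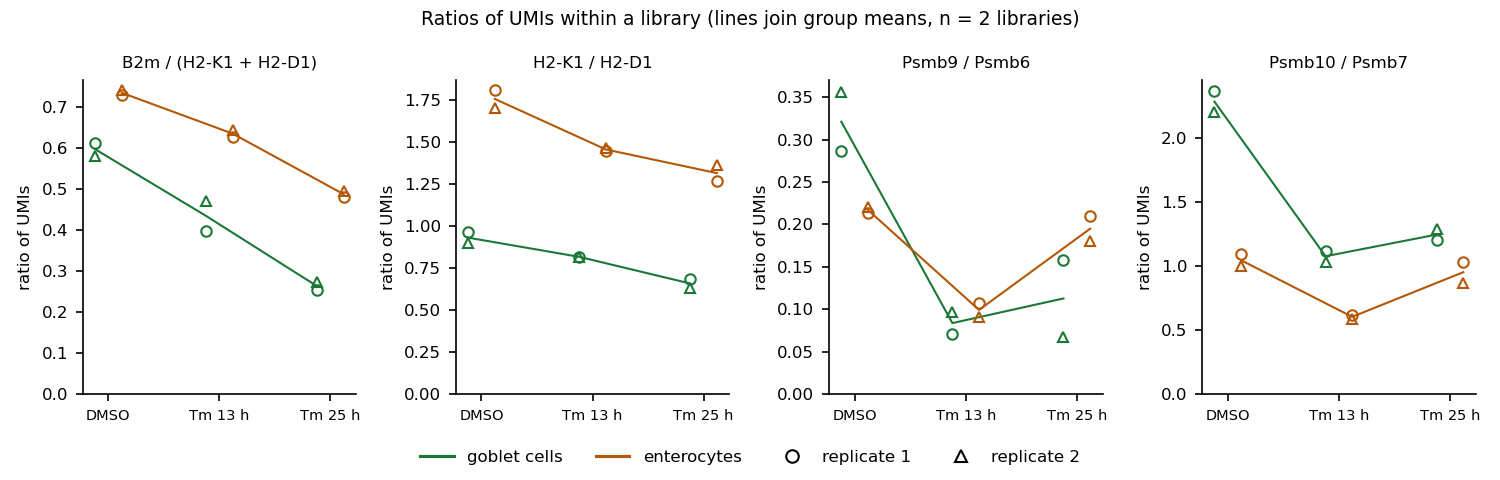
Ratios of UMIs within each library, for goblet cells (green) and enterocytes (orange), by group, with circles and triangles for the 2 libraries and lines joining group means. B2m per heavy chain UMI drops at each step in both classes, to 0.253 and 0.274 in goblet cells at 25 h, whereas Psmb9 per Psmb6 and Psmb10 per Psmb7 are lowest at 13 h in enterocytes.

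Tapbp, the tapasin that bridges the heavy chain and the peptide transporter, fell in both classes. In enterocytes it had 220 and 211 CPM in DMSO, 152 and 150 CPM after 13 h, and 160 and 165 CPM after 25 h. The change was -0.51 ± 0.05 at 13 h (adjusted p = 5.67e-07) and -0.41 ± 0.05 at 25 h (adjusted p = 6.11e-06), with no passing step between the times (0.11 ± 0.05, adjusted p = 0.143). In goblet cells Tapbp had 258 and 271 CPM in DMSO, 137 and 112 CPM after 13 h, and 134 and 149 CPM after 25 h, and it fell by 53.0% at 13 h (-1.09 ± 0.13, adjusted p = 3.78e-06) and fell by 46.6% at 25 h (-0.91 ± 0.13, adjusted p = 1.35e-05). Tapbp overlaps Zbtb22 on the same strand, which had 1644 UMIs in enterocytes, so some reads of the pair may be shared or lost.

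The peptide transporter went the other way late in the treatment. In enterocytes Tap2 had 11.0 and 9.71 CPM in DMSO, 9.04 and 9.10 CPM after 13 h, and 15.7 and 15.3 CPM after 25 h. Tap1 had 5.46 and 6.23 CPM in DMSO, 4.03 and 5.64 CPM after 13 h, and 12.3 and 9.23 CPM after 25 h. For both subunits the 25 h libraries were above all others. At 25 h against DMSO, Tap1 rose by 83.6% (0.88 ± 0.18, adjusted p = 0.00123) and Tap2 by 49.5% (0.58 ± 0.12, adjusted p = 8.77e-04), and against 13 h the changes were 1.14 ± 0.20 (adjusted p = 0.00101) and 0.78 ± 0.13 (adjusted p = 5.15e-04). At 13 h against DMSO neither passed (Tap1 -0.26 ± 0.20, adjusted p = 0.297, and Tap2 -0.20 ± 0.12, adjusted p = 0.196). In goblet cells the counts were low. Tap2 had 14 and 8 UMIs in DMSO, 14 and 11 after 13 h, and 18 and 19 after 25 h, and its change at 25 h was 0.58 ± 0.39 (adjusted p = 0.285). Tap1, with 9 and 8 UMIs in DMSO, 2 and 6 after 13 h, and 10 and 11 after 25 h, did not pass the expression filter there.

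Psmb9 and Psmb10, catalytic subunits of the immunoproteasome, dipped at 13 h and came back by 25 h in enterocytes. Psmb9 had 30.1 and 30.2 CPM in DMSO, 16.1 and 13.5 CPM after 13 h, and 31.0 and 28.4 CPM after 25 h. It fell by 51.2% at 13 h (-1.03 ± 0.09, adjusted p = 3.66e-07), was higher again at 25 h than at 13 h (1.01 ± 0.10, adjusted p = 7.25e-06), and at 25 h against DMSO gave -0.03 ± 0.09 (adjusted p = 0.817). Psmb10 had 89.1 and 87.9 CPM in DMSO, 48.1 and 45.4 CPM after 13 h, and 81.2 and 70.9 CPM after 25 h. Its fall at 13 h was 47.2% (-0.92 ± 0.06, adjusted p = 3.28e-08), followed by a rise between 13 h and 25 h (0.70 ± 0.07, adjusted p = 7.13e-06). At 25 h it was still lower than in DMSO (-0.22 ± 0.06, adjusted p = 0.00919), a call that was lost without 25 h replicate 2 (-0.13, adjusted p = 0.159) and with DESeq2 (adjusted p = 0.0534), and was -0.34 without 25 h replicate 1.

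In goblet cells both subunits were still low at 25 h. Psmb10 had 191 and 179 CPM in DMSO, 103 and 86.2 CPM after 13 h, and 104 and 112 CPM after 25 h, with changes of -0.97 ± 0.14 at 13 h (adjusted p = 3.17e-05) and -0.77 ± 0.13 at 25 h (adjusted p = 1.31e-04). Psmb9 had 44.5 and 53.5 CPM in DMSO, 13.7 and 17.4 CPM after 13 h, and 27.7 and 14.1 CPM after 25 h. At 25 h replicate 2 lay between the 13 h libraries and replicate 1 above them. Psmb9 fell at 13 h (-1.65 ± 0.29, adjusted p = 3.04e-04) and at 25 h (-1.20 ± 0.26, adjusted p = 0.00118), and neither subunit passed between the times (Psmb9 0.45 ± 0.34, adjusted p = 0.585, and Psmb10 0.19 ± 0.15, adjusted p = 0.593).

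Set against its standard counterpart, Psmb9 had 0.213 and 0.221 UMIs per Psmb6 UMI in DMSO enterocytes, 0.108 and 0.0905 after 13 h, and 0.210 and 0.180 after 25 h. Psmb10 had 1.09 and 0.999 UMIs per Psmb7 UMI in DMSO enterocytes, 0.621 and 0.585 after 13 h, and 1.04 and 0.869 after 25 h. In goblet cells the Psmb10 ratio was 2.36 and 2.20 in DMSO, 1.12 and 1.03 after 13 h, and 1.20 and 1.29 after 25 h. The Psmb9 ratio there was 0.286 and 0.356 in DMSO, 0.0704 and 0.0969 after 13 h, and 0.158 and 0.0672 after 25 h. Its 25 h libraries thus lay on both sides of the 13 h ones. Of the 3 standard subunits in enterocytes, Psmb5 rose at 13 h (0.18 ± 0.05, adjusted p = 0.00570) and Psmb6 at 25 h (0.13 ± 0.05, adjusted p = 0.0348), and 0 fell, where 23.8% of all genes were higher at 13 h and 26.1% at 25 h. In goblet cells 0 of 3 passed at either time by edgeR, with values of 0.10 to 0.33.

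Psmb8, the third immunoproteasome subunit, and Nlrc5 had too few UMIs to be followed. Psmb8 had 19 and 24 UMIs in the DMSO enterocyte libraries, 21 and 7 after 13 h, and 11 and 7 after 25 h, and no comparison passed (13 h -0.22 ± 0.45, adjusted p = 0.712; 25 h -0.25 ± 0.51, adjusted p = 0.713). In goblet cells it had 4 and 5 UMIs in DMSO, 1 and 0 after 13 h, and 2 and 1 after 25 h, below the filter. Nlrc5 had 2 UMIs in DMSO replicate 1 enterocytes and 0 in every other sum of enterocytes and goblet cells. A count of 0 there allows, at 3 UMIs and for counting error only, up to 0.179 CPM in enterocytes of DMSO replicate 2, 0.387 CPM in those of 25 h replicate 1, and 2.85 CPM in goblet cells of 13 h replicate 1. These limits are CPM of total counts, without TMM.

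**Figure D3:**
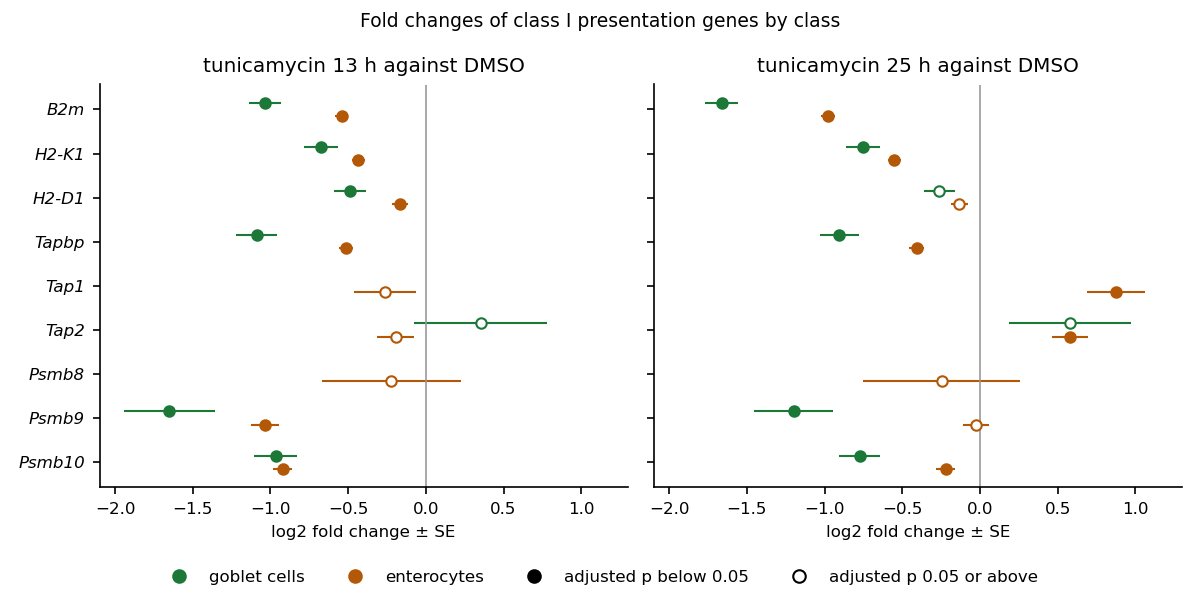
Log2 fold changes for the genes tested in goblet cells (green) and enterocytes (orange), for 13 h against DMSO (left) and 25 h against DMSO (right). Error bars are standard errors worked back from each fold change and its F statistic, and points are filled for adjusted p below 0.05. At 13 h the passing genes are all lower than in DMSO, and at 25 h Tap1 (0.88) and Tap2 (0.58) are higher in enterocytes while B2m reaches -1.66 in goblet cells.

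Of the 9 genes that passed the expression filter in enterocytes, 6 were lower at 13 h than in DMSO (adjusted p below 0.05) and 0 were higher, where 23.8% of all 11145 genes tested were lower and 23.8% higher. Their median log2 fold change was -0.44, against 0.01 over all genes tested. At 25 h against DMSO 4 of the 9 were lower and 2 higher, where 24.2% of genes were lower and 26.1% higher. At 25 h against 13 h 1 was lower and 4 were higher, where 10.9% were lower and 10.4% higher. The first 2 comparisons share the DMSO libraries and the last shares libraries with both. In goblet cells 7 of the 10 genes passed the filter. Of these, 6 were lower at 13 h than in DMSO (11.5% of 7839 genes tested), 5 at 25 h (16.0%), and 1, B2m, at 25 h against 13 h (1.47%). By edgeR 0 of the 7 were higher in any of the 3 comparisons, where 10.8%, 15.8% and 2.03% of genes were higher. Scaling by total counts in place of TMM moved the median of all genes in goblet cells to 0.16 at 13 h and 0.13 at 25 h, and the share of passing genes that were higher to 68.4% and 63.8%, against 48.4% and 49.6% with TMM. The goblet calls of these genes did not change with it. The summed goblet markers in goblet cells, as CPM of total counts without TMM, were 183447 to 196930 in DMSO. They were 113506 to 121676 after 13 h and 79643 to 96050 after 25 h. Of the 8 markers, 5 were lower at 13 h and 6 at 25 h by edgeR, against the 11.5% and 16.0% of all genes above. Agr2 was higher at both times. On the TMM scale it averaged 3615 CPM in DMSO, 5500 CPM after 13 h and 7419 CPM after 25 h. The part of the markers in these changes was not tested.

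In DMSO the 2 classes differed in these genes. As log2 differences of goblet cells over enterocytes in DMSO, Psmb10 (1.15 ± 0.10), Psmb9 (0.79 ± 0.16), Tapbp (0.38 ± 0.08) and H2-D1 (0.28 ± 0.07) were higher in goblet cells, and B2m (-0.53 ± 0.07) and H2-K1 (-0.63 ± 0.07) were lower. Without DMSO replicate 2 Psmb9 (0.61, adjusted p = 0.0767), Tapbp (0.28, adjusted p = 0.103) and H2-D1 (0.18, adjusted p = 0.209) did not pass, and H2-D1 was 0.12 with total-count scaling (adjusted p = 0.201) and 0.18 with at most 10% mitochondrial UMIs (adjusted p = 0.0530). The differences are descriptions, since the authors may have used expression to assign the classes.

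The response itself was larger in goblet cells for several genes, by a test of the interaction of class and treatment with library as a block. At 13 h the goblet response of 3 of 9 genes was lower than the enterocyte response and that of 0 was higher, where 3.33% of 10458 genes were lower and 1.48% higher. These were B2m (difference of log2 fold changes -0.54 ± 0.10, edgeR, adjusted p = 3.24e-04), Tapbp (-0.62 ± 0.13, adjusted p = 0.00142) and H2-D1 (-0.37 ± 0.10, adjusted p = 0.0192). At 25 h 4 of 9 were lower, where 4.50% were lower and 2.55% higher over all genes. These were B2m (-0.73 ± 0.10, adjusted p = 1.45e-06), Psmb9 (-1.23 ± 0.26, adjusted p = 0.00117), Psmb10 (-0.60 ± 0.14, adjusted p = 0.00395) and Tapbp (-0.54 ± 0.12, adjusted p = 0.00303). For 25 h against 13 h, edgeR passed 0 of 9 (1, Psmb10, at an unadjusted p below 0.05: -0.51 ± 0.16, adjusted p = 0.196), where 0.220% of genes were lower and 0.296% higher. B2m was the gene whose difference held without each library in turn at both times. At 13 h Tapbp was lost without DMSO replicate 2 (-0.51, adjusted p = 0.0982) or 13 h replicate 2 (-0.50, adjusted p = 0.0817), and H2-D1 with total-count scaling (-0.21, adjusted p = 0.323), with at most 10% mitochondrial UMIs (-0.33, adjusted p = 0.0637) and without each library except 25 h replicate 2. At 25 h without DMSO replicate 2, Tapbp (-0.42, adjusted p = 0.159) and Psmb9 (-1.03, adjusted p = 0.0740) were lost, and without 25 h replicate 1, Tapbp (-0.39, adjusted p = 0.219) and Psmb10 (-0.35, adjusted p = 0.379) were. Psmb9 at 25 h was also lost without 25 h replicate 2 (-0.89, adjusted p = 0.0686), and Psmb10 without DMSO replicate 1 (-0.54, adjusted p = 0.0923).

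In the few cells of the class named tuft, levels are given as CPM of total counts, a scale that differs from the one above. B2m had 746 and 663 CPM in DMSO, 461 and 506 CPM after 13 h, and 255 and 586 CPM after 25 h. Psmb10 had 70.0 and 101 CPM in DMSO, 30.7 and 40.4 CPM after 13 h, and 56.8 and 41.7 CPM after 25 h. For B2m and Psmb10, and likewise for H2-K1 and Tapbp, every tunicamycin library lay below both DMSO libraries. The share of all genes with this order in this class was not counted, so nothing is read from it. H2-D1 did not have this order, with 624 and 748 CPM in DMSO, 557 and 477 CPM after 13 h, and 515 and 836 CPM after 25 h. Tap2 had 13.5 and 15.7 CPM in DMSO, 4.85 and 3.85 CPM after 13 h, and 8.11 and 11.1 CPM after 25 h, so its 25 h libraries were not above DMSO as in enterocytes. Tap1 had 4.92 and 12.6 CPM in DMSO, 4.85 and 9.61 CPM after 13 h, and 8.11 and 22.2 CPM after 25 h. Tap1, Tap2, Psmb8 and Psmb9 had 0 to 11 UMIs per library in this class, and Nlrc5 had 0 in every library.

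The lower level of B2m was seen across the distribution of cells. With each cell thinned to 5000 UMIs, which left out 2 to 13 shallower cells per library, the median enterocyte held 7 and 7 B2m UMIs in DMSO, 5 and 5 after 13 h, and 4 and 4 after 25 h. The 90th percentile was 14 and 14 UMIs in DMSO, 11 and 11 after 13 h, and 9 and 8 after 25 h, and the 10th was 3 and 3, 2 and 2, and 1 and 1. In goblet cells the median was 4 and 4.5 UMIs in DMSO, 2 and 2 after 13 h, and 1 and 1 after 25 h. H2-D1 medians were 3 or 4 UMIs in every library of both classes. In goblet cells they were 4 and 4 in DMSO, 3 and 3 after 13 h, and 4 and 3 after 25 h. Cells of a library are not replicates, and no test was made over them.

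**Figure D4:**
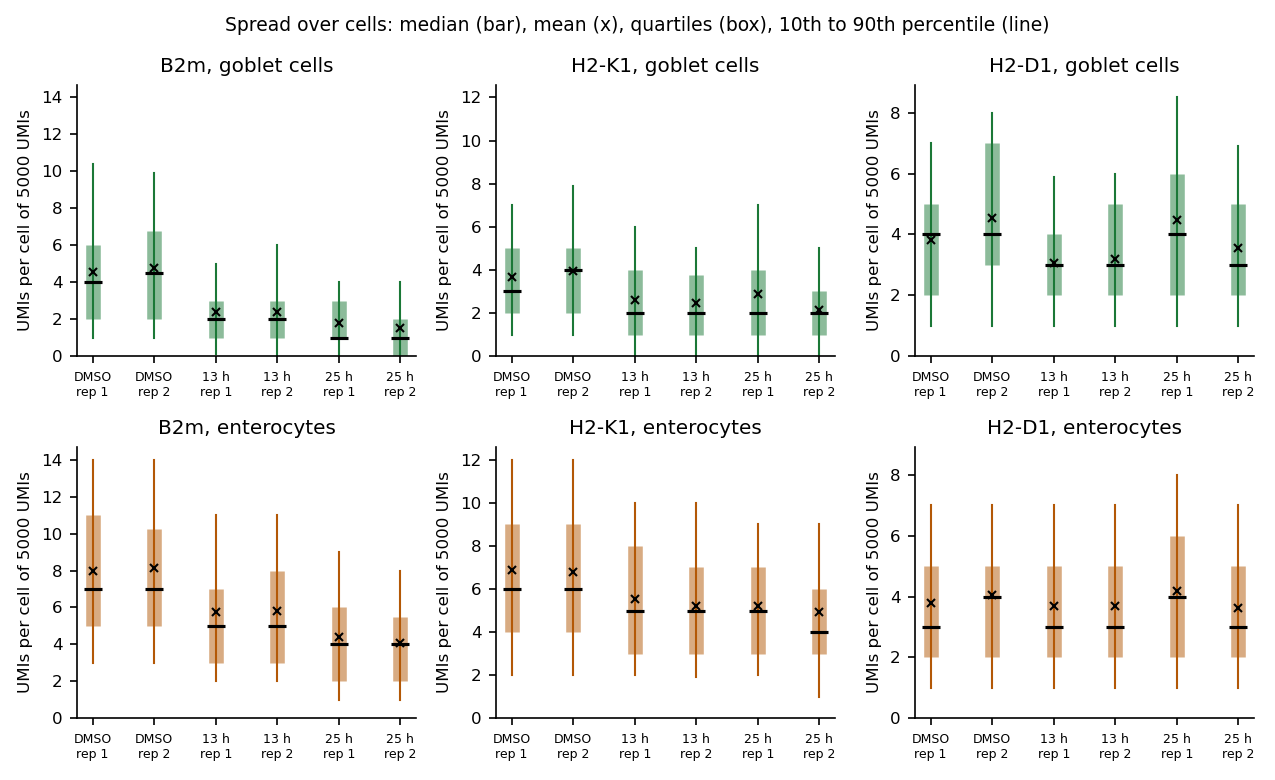
UMIs per cell of B2m, H2-K1 and H2-D1 after thinning every cell to 5000 UMIs, for each library of goblet cells (upper row) and enterocytes (lower row). Bars are medians, crosses means, boxes quartiles and lines the 10th to 90th percentile. In enterocytes the whole B2m distribution moves down with exposure, to medians of 4 at 25 h. In goblet cells the B2m median falls to 1 at 25 h, but the 10th percentile is already 0.1 and 0 at 13 h. That of H2-D1 keeps medians of 3 or 4.

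Among the partners that assist class I folding in the ER, Calr, Pdia3, Canx and Uggt1 rose at both times in both classes. Of 6 such genes in enterocytes, 4 rose and 0 fell after 13 h, where 23.8% of all genes were higher, and 5 rose and 0 fell after 25 h, where 26.1% were higher. In goblet cells 4 of 6 rose at each time, where 10.8% of all genes were higher at 13 h and 15.8% at 25 h. Calr, which codes for calreticulin, had 356 and 344 CPM in DMSO enterocytes, 2792 and 2914 CPM after 13 h, and 2537 and 2592 CPM after 25 h (3.03 ± 0.05 and 2.87 ± 0.05, adjusted p = 8.13e-15 and 2.33e-14). Pdia3, the disulfide isomerase ERp57 of the loading complex, rose by 2.75 ± 0.05 at 13 h and 2.45 ± 0.05 at 25 h, Canx (calnexin) by 1.44 ± 0.05 and 1.31 ± 0.05, and Uggt1, which returns misfolded glycoproteins to calreticulin, by 1.55 ± 0.06 and 1.17 ± 0.06. In goblet cells the rises of Calr were 1.66 ± 0.10 at 13 h and 1.61 ± 0.10 at 25 h. Tapbpl, a tapasin-like peptide editor, rose only at 25 h by this test in enterocytes (0.63 ± 0.09, adjusted p = 4.16e-05, and -0.05 ± 0.09 at 13 h, adjusted p = 0.680), with a passing step between the times (0.67 ± 0.09, adjusted p = 1.38e-04). Erap1, the ER peptide trimmer, did not pass (-0.16 ± 0.12 at 13 h and 0.10 ± 0.13 at 25 h). The chaperones among these serve all glycoproteins of the ER, not class I alone.

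The proteasome activator PA28, whose subunits Psme1 and Psme2 are raised by interferon gamma, followed the course of Psmb9 and Psmb10 in part. In enterocytes Psme1 had 78.8 and 79.6 CPM in DMSO, 56.0 and 54.8 CPM after 13 h, and 69.9 and 72.3 CPM after 25 h. It fell at 13 h (-0.52 ± 0.05, adjusted p = 1.58e-06) and less at 25 h (-0.16 ± 0.05, adjusted p = 0.0246), with a rise between the times (0.36 ± 0.06, adjusted p = 3.89e-04). Psme2 fell by 0.38 ± 0.05 and 0.24 ± 0.05 on the log2 scale (adjusted p = 1.18e-05 and 5.78e-04). In goblet cells the falls of Psme1 were -1.23 ± 0.16 at 13 h and -0.87 ± 0.14 at 25 h. Over the 6 activator and assembly genes in enterocytes, 2 rose and 3 fell after 13 h, and 2 rose and 4 fell after 25 h, and the 2 that rose were the assembly chaperones Psmg1 and Psmg2. Over all genes 23.8% were higher and 23.8% lower at 13 h, and 26.1% were higher and 24.2% lower at 25 h. Pomp, which drives proteasome maturation, fell (-0.16 ± 0.05 and -0.23 ± 0.05, adjusted p = 0.0121 and 9.79e-04). Among 5 cytosolic peptidases that trim peptides, 2 rose and 1 fell after 13 h, and 2 rose and 2 fell after 25 h, with Blmh at 0.57 ± 0.10 and 0.78 ± 0.10 and Npepps at -0.30 ± 0.05 and -0.31 ± 0.06. With 5 genes and those same shares over all genes, nothing is read from the count.

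Heavy chains other than H2-K1 and H2-D1 also fell more often than they rose. Of 18 listed, 15 had a row under their symbol and 10 were tested in enterocytes, and at 13 h 7 fell and 0 rose, and at 25 h 7 fell and 1, H2-M3, rose. Over all genes 23.8% fell and 23.8% rose at 13 h, and 24.2% fell and 26.1% rose at 25 h. H2-Q2 had 513 and 503 CPM in DMSO, 415 and 427 CPM after 13 h, and 305 and 303 CPM after 25 h, a stepwise fall (-0.27 ± 0.04 and -0.74 ± 0.04, adjusted p = 1.45e-04 and 7.44e-09). H2-Q1 fell late, with 125 and 129 CPM in DMSO, 132 and 134 CPM after 13 h, and 69.4 and 66.9 CPM after 25 h (0.06 ± 0.05, adjusted p = 0.270, and -0.90 ± 0.05, adjusted p = 4.27e-09). H2-T23, the mouse Qa-1 chain, fell by 0.85 ± 0.11 and 0.87 ± 0.12 on the log2 scale, and H2-T22 at 13 h (-0.28 ± 0.06, adjusted p = 0.00148) but not by the test at 25 h (-0.09 ± 0.06, adjusted p = 0.267). The same caution on paralogs holds for these genes. Of 7 class II presentation genes tested in enterocytes, 3 fell at 13 h and 5 at 25 h and 0 rose, where 23.8% of all genes were lower at 13 h and 24.2% at 25 h. Csf1r, a macrophage receptor and the 1 gene of the immune markers that was tested in enterocytes, fell with them, and averaged 5.87 ± 0.0886 CPM in DMSO, 1.78 ± 0.389 CPM after 13 h and 1.16 ± 0.668 CPM after 25 h (SD, n = 2 each, with log2 fold changes of -1.72 ± 0.24 and -2.35 ± 0.31, adjusted p = 4.38e-05 and 1.89e-05), and its part in these falls was not tested. Ifi30, a lysosomal thiol reductase, fell by 0.71 ± 0.06 and 1.01 ± 0.07, and Cd74, the invariant chain, had 19.3 and 15.1 CPM in DMSO, 15.5 and 19.1 CPM after 13 h, and 3.65 and 7.84 CPM after 25 h (0.01 ± 0.16, adjusted p = 0.953, and -1.56 ± 0.23, adjusted p = 5.51e-05).

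**Figure D5:**
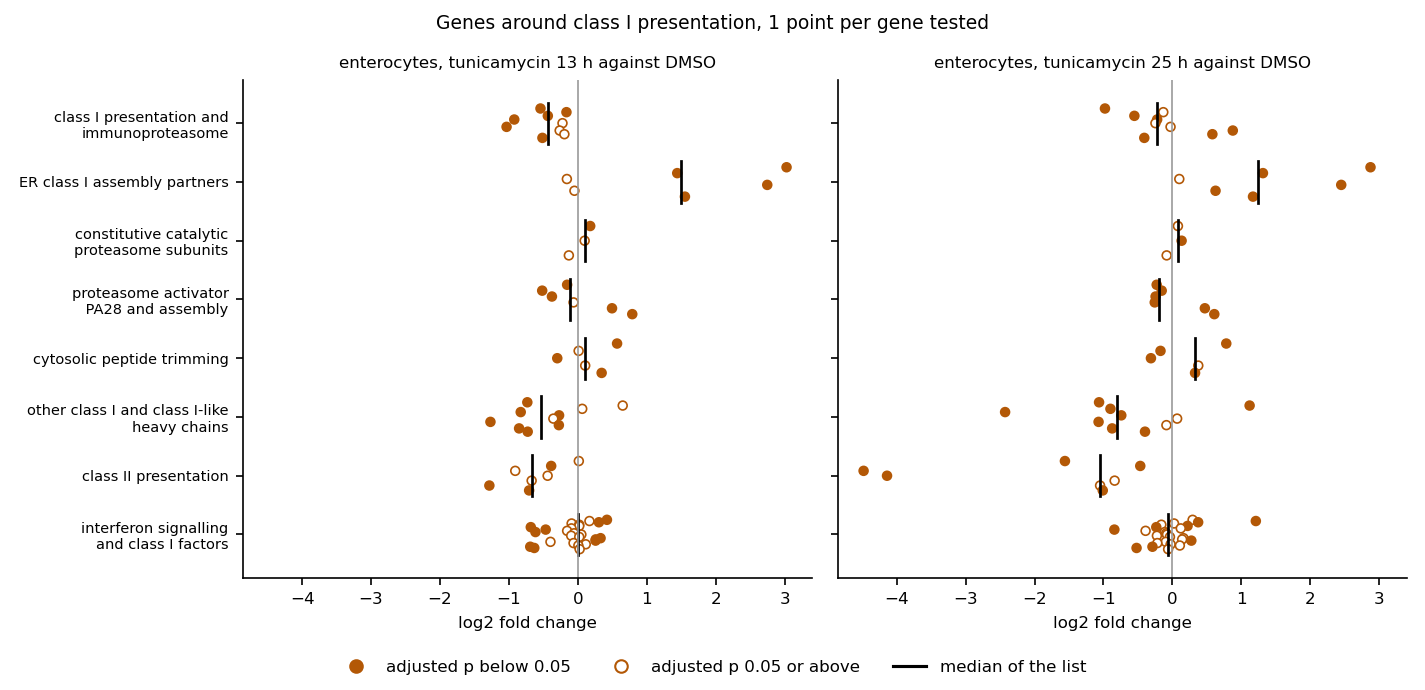
Log2 fold changes in enterocytes for the class I presentation genes and 7 related gene lists, at 13 h (left) and 25 h (right) against DMSO, with a point per gene tested, filled where adjusted p was below 0.05, and a bar at the median of each list. ER assembly partners lie to the right, up to 3.03 for Calr at 13 h, whereas heavy chains and class II genes lie mostly to the left.

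Of 25 genes of interferon signalling and class I transcription tested in enterocytes, 5 rose and 5 fell after 13 h, and 4 rose and 4 fell after 25 h. Each of these shares is below that over all genes, of which 23.8% rose and 23.8% fell at 13 h, and 26.1% rose and 24.2% fell at 25 h. Ifngr1, a chain of the interferon gamma receptor, had 340 and 353 CPM in DMSO, 429 and 427 CPM after 13 h, and 449 and 449 CPM after 25 h (0.31 ± 0.04 and 0.37 ± 0.04, adjusted p = 5.46e-05 and 7.92e-06), whereas Ifngr2 and Jak2 did not pass. Irf7, a factor of the type I interferon response, fell at both times (-0.47 ± 0.05 and -0.84 ± 0.06, adjusted p = 4.97e-06 and 1.74e-08). Irf1, Irf9 and Stat2 were among the other falling genes at 13 h, picked out here after their values were seen. Irf1, an activator of class I and immunoproteasome genes, averaged 75.1 ± 0.17 CPM in DMSO, 46.8 ± 1.65 CPM after 13 h and 63.9 ± 0.30 CPM after 25 h (SD, n = 2 each), a dip at 13 h (-0.68 ± 0.05, adjusted p = 1.36e-07) with a rise between 13 h and 25 h (0.45 ± 0.06, adjusted p = 9.75e-05). Irf9 gave -0.61 ± 0.11 at 13 h, -0.11 ± 0.12 at 25 h and 0.50 ± 0.13 between the times, of which -0.11 did not pass. In goblet cells, of 22 genes tested 6 fell and 0 rose after 13 h, where 11.5% of all genes fell and 10.8% rose, and 10 fell and 1 rose after 25 h, where 16.0% fell and 15.8% rose, with Irf1 at -1.15 ± 0.16 and -0.82 ± 0.15. The labels name no interferon treatment.

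Likeness of pattern was measured in enterocytes as the root mean square difference of log2 CPM, each gene centred on its DMSO mean, over 6 libraries and 5050 genes with a mean of at least 20 CPM. The genes nearest to B2m were Skp1a (0.0329), Abhd3 (0.0368) and Fuca2 (0.0475). Skp1a had log2 fold changes of -0.57 at 13 h and -0.97 at 25 h, and Abhd3 of -0.59 and -0.99. The genes nearest to Psmb8 were Rpl9-ps6 (0.154), Krba1 (0.189) and Tmpo (0.192), and with so few UMIs of Psmb8 this order says little. The genes nearest to Psmb10, looked up after its values were seen, were Nr1d1 (0.0930), Ppp1r1b (0.0992) and Acaa2 (0.104), with changes of -0.83, -0.85 and -0.89 at 13 h and -0.13, -0.14 and -0.35 at 25 h.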

How the data were processed

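Raw UMI counts per gene and cell were deposited by the authors in a single matrix of 27998 genes and 5122 cells. Polyadenylated RNA was sequenced with a 10x Genomics droplet kit that reads the 3' end, per the labels' protocols, and Cell Ranger and mm10 are named in the submitters' processing notes. Neither the version nor the filter that chose the deposited cells is recorded there. Library and class come from the deposited cell names, and 12 barcodes that occur in several libraries were kept apart. Symbols and coordinates came from GENCODE vM21, which matched 27722 identifiers.

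The 5026 cells kept had at least 1000 UMIs and 500 genes, with a mitochondrial share of up to 25%, and no doublets were removed. Counts were summed per library and class and tested with edgeR 4.0.16 in R 4.3.3 (filterByExpr, TMM, quasi-likelihood F test, all 6 libraries in 1 fit, Benjamini-Hochberg adjustment over all genes, threshold 0.05). This tested 11145 genes in enterocytes (biological coefficient of variation 0.0418), 7839 in goblet cells (0.0788) and 10458 for the interaction of class and treatment. Enterocyte sums held 7760117 to 17429023 UMIs and goblet sums 1052495 to 1425291. Errors of fold changes are standard errors worked back from each fold change and its F statistic. Replicate numbers are not stated to pair the libraries, so the main fit used no pairing.

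The genes and lists were chosen with earlier results of these data known. Named were the 10 genes, up to 4 genes per list by mean CPM, counterparts of the loading complex and proteasome, and 3 genes nearest in pattern to B2m and to Psmb8. Genes outside this rule are marked as such, or are the passing genes of a short count, and some list genes are not reported here. Alternatives were total-count scaling, DESeq2 1.42.0, no gene filter, other mitochondrial limits, a replicate block, all classes summed, leaving out each library, and thinning to 8000 in place of 5000 UMIs. The interaction and DMSO class difference were rerun only with total-count scaling, no gene filter, at most 10% mitochondrial UMIs, and without each library.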

Additional observations from a re-analysis of the deposited data

Results flagged for a closer look

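For 7 results the response to tunicamycin differed between goblet cells and enterocytes by the test of the difference itself (edgeR interaction of class and treatment, difference of log2 fold changes, goblet minus enterocyte). At 13 h these were B2m (-0.54), Tapbp (-0.62) and H2-D1 (-0.37), and at 25 h B2m (-0.73), Psmb10 (-0.60), Tapbp (-0.54) and Psmb9 (-1.23). All 7 differences were negative, which describes the response to tunicamycin and not the level of the gene in a class. Goblet sums rest on 75 to 109 cells per library and enterocyte sums on 426 to 1046, and what lies behind the differences was not tested.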

How the results depend on the processing

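Under the alternatives, 455 values of genes that passed kept their direction and call, 27 kept the direction and lost the call, and 0 reversed. With DESeq2 fewer genes passed: 3500 in enterocytes at 13 h and 1253 at 25 h against 13 h, and in goblet cells 818 at 13 h, 1221 at 25 h and 159 at 25 h against 13 h (edgeR: 5307, 2380, 1754, 2491 and 274). Without a gene filter 2 of the listed genes were lower at 25 h against 13 h in enterocytes, and 97 genes passed the interaction for that step. No replicate block changed the call of a listed gene (5114, 5444 and 2196 genes in enterocytes, 1757, 2469 and 291 in goblet cells), and deviations of same-numbered libraries correlated at -0.0887 to 0.0221.

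Of the values that missed the threshold, 14 passed in the same direction under an alternative. Psmb8 in goblet cells against enterocytes in DMSO was 1 of them, with 4 and 5 UMIs in those goblet libraries. It gave 1.57 (adjusted p = 0.0883, edgeR), and 2.36 with at most 10% mitochondrial UMIs (adjusted p = 0.0194, edgeR). Values that missed the threshold changed sign 23 times, each time without passing, and the cause was not tested. With total-count scaling these were Psmb9 in enterocytes at 25 h (0.0187) and, for the interaction, Psmb10 at 13 h (0.064) and Tap2 at 25 h (0.090). With at most 10% mitochondrial UMIs they were H2-D1 in enterocytes at 25 h against 13 h (-0.0049) and, for the interaction, Psmb10 at 13 h (0.049) and H2-K1 at 25 h against 13 h (-0.0092). Without each library in turn, the values in enterocytes were -1.29 to 0.40 for Psmb8 at 13 h, -0.69 to 0.10 at 25 h and -0.67 to 1.03 at 25 h against 13 h, -0.11 to 0.034 for Psmb9 at 25 h, and -0.051 to 0.11 for H2-D1 at 25 h against 13 h. In goblet cells they were -0.045 to 0.86 for Tap2 at 13 h, and at 25 h against 13 h -0.23 to 0.054 for H2-K1 and -0.15 to 0.83 for Psmb9. For the interaction they were -0.17 to 0.0038 for Psmb10 at 13 h, -0.28 to 0.39 for Tap2 at 25 h, and at 25 h against 13 h -0.044 to 0.22 for Tapbp, -0.082 to 0.16 for H2-K1 and -0.47 to 0.63 for Tap1. Tap2 in goblet cells against enterocytes in DMSO ranged from -0.54 to 0.14.

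Without each library in turn, the genes that passed in goblet cells numbered 1033 to 1770 at 13 h and 139 to 249 at 25 h against 13 h. The interaction passed 224 to 527 genes at 13 h, 373 to 706 at 25 h and 13 to 52 at 25 h against 13 h, and the class difference in DMSO 2268 to 3663. Of the listed genes, 1 to 2 were lower in enterocytes at 25 h against 13 h, 0 to 1 in goblet cells at that step, 1 to 3 in the interaction at 13 h and 2 to 4 at 25 h, and 1 to 4 were higher in goblet cells in DMSO. Leaving out a library of a pair leaves that group with a single library, which is then assumed to vary like the others. Psmb8 and Nlrc5 in both classes, and Tap1 and Tap2 in goblet cells, had few UMIs, and whether depth or low expression sets this was not tested.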
